A study of Mus musculus with 6 samples.

Results

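Hippocampal CA3 spots were the 12 spots of each coronal brain section that scored highest for 4 genes of CA3 pyramidal neurons, Grik4, Nectin3, Iyd and Cabp7. They came to 72 of the 16741 spots with at least 500 UMIs in 6 sections, and the remaining 16669 are called the other spots. The score summed, over the 4 genes, the natural log of 1 plus the gene's UMIs per 10000 UMIs of the spot. Visium captures the RNA of a tissue section on printed, barcoded spots and tags each captured molecule with a unique molecular identifier (UMI), the unit counted here. Cells of more than 1 type can lie over the same spot.

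The sections came from male mice of the inbred strain C57BL/6J, aged 6 months (young), 18 months (middle) or 21 months (old), with 2 sections per age. The labels name no treatment, transgene or mutant allele in any group, and they give 2 males per age without tying a section to an animal, and the sections of an age were treated as separate animals. Sections were 16 µm thick, at about Bregma -1.655 mm. Both young sections, middle 1 and old 1 were on slide 1, and middle 2 and old 2 on slide 2, so young sections came from slide 1 only. All p-values measure only the spread between these sections.

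CA3 pyramidal neurons receive the mossy fibres of dentate granule cells, excite each other through recurrent collaterals and send the Schaffer collaterals to CA1. The mossy fibre synapse is known for its kainate-type glutamate receptors, and the recurrent network is known for memory recall and for seizure susceptibility. Local GABAergic interneurons, among them cells that contain somatostatin and neuropeptide Y, control the dendrites of these neurons.

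By the median spot, the CA3 spots held more UMIs than the other spots of their section. Their sums ran from 389592 UMIs in old 2 to 590743 in young 1, and the median spot held 54164.5 and 41364.5 UMIs in young, 50186 and 39835 in middle and 34532.5 and 36283 in old sections, against medians of 20344 to 30016 in the other spots. Both old medians lay below the other 4, with an old minus young difference of -12356.8 UMIs, but an exact permutation test across the 3 ages gave p = 0.2667, where 0.06667 is the smallest that 2 sections per age allow. The score of the 12th spot was 3.24 and 3.23 in young, 2.93 and 2.90 in middle and 2.94 and 2.88 in old sections, and that of the 13th, just outside, was 2.83 to 3.20. At least 3 of the 4 genes had a UMI in 12, 12, 11, 11, 12 and 12 of the members, in the order young 1, young 2, middle 1, middle 2, old 1 and old 2, which is the order of all values by section below. Every capture area carries the same set of barcodes, so that 1920 barcodes occurred in all 6 sections, and 8 of the 62 distinct member barcodes were used in more than 1 section.

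The section young 1 stood apart in how much hippocampus it held. Its scores were as high as those of the other sections, from 3.24 to 4.05, but only 39 of its spots scored above 2, against 53 to 103 elsewhere. Of its 12 members, the 9th had 12405 UMIs, the fewest of all members. The 12 spots that scored highest there for CA1 genes had 5.01 CPM (UMIs per 1000000 UMIs of the set) of the CA1 gene Fibcd1, where the other 5 sections had 253 to 341. The 12 spots that scored highest there for dentate gyrus genes went down to a score of 2.38, against 4.41 to 4.74 elsewhere. They had 352 CPM of the dentate gene C1ql2, against 396 to 512, and 70.9 of Dsp, against 133 to 211. Values for CA1 and dentate gyrus spots, each the 12 highest-scoring spots of a section for that field, are therefore given without young 1 unless stated. The CA1 spots of the other 5 sections, young 2 to old 2, summed to 688317, 626934, 415807, 578568 and 428350 UMIs. Except in middle 2, these sums lay above those of the CA3 spots.

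The 4 genes that chose the spots are described here without a test, since the choice fixed their direction. Grik4 (chromosome 9, 42518135 to 42944493, minus strand, GRCm38) encodes a high-affinity kainate receptor subunit found at mossy fibre synapses. Its level in CA3 spots was 113, 133, 116, 92.4, 161 and 105 CPM, against 13.6 to 15.1 in the other spots, 0 to 8.72 in CA1 spots and 24.2 to 38.5 in dentate gyrus spots. Nectin3 (chromosome 16, 46387706 to 46498525, minus strand) encodes an immunoglobulin-like adhesion molecule. It reached 142, 125, 112.5, 90.4, 98.2 and 103 CPM, and the other spots had 11.3 to 15.6.

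Iyd (chromosome 10, 3540240 to 3554877, plus strand) encodes the deiodinase that recovers iodide from iodotyrosines. It had the fewest UMIs of the 4, namely 37, 11, 13, 11, 8 and 13, or 62.6, 22.1, 23.2, 22.6, 18.7 and 33.4 CPM against 0.655 to 1.11 in the other spots, of which only 1.72% to 2.72% had an Iyd UMI. Young 1 was the highest of the 6 for Iyd. Cabp7 (chromosome 11, 4736892 to 4746778, minus strand) encodes a membrane-bound calcium-binding protein of the calmodulin family. Its level of 381, 467, 404, 446, 411 and 388 CPM compared with 19.1 to 49.7 in the other spots, 177 to 207 in CA1 spots and 85.9 to 140 in dentate gyrus spots.

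**Figure D1:**
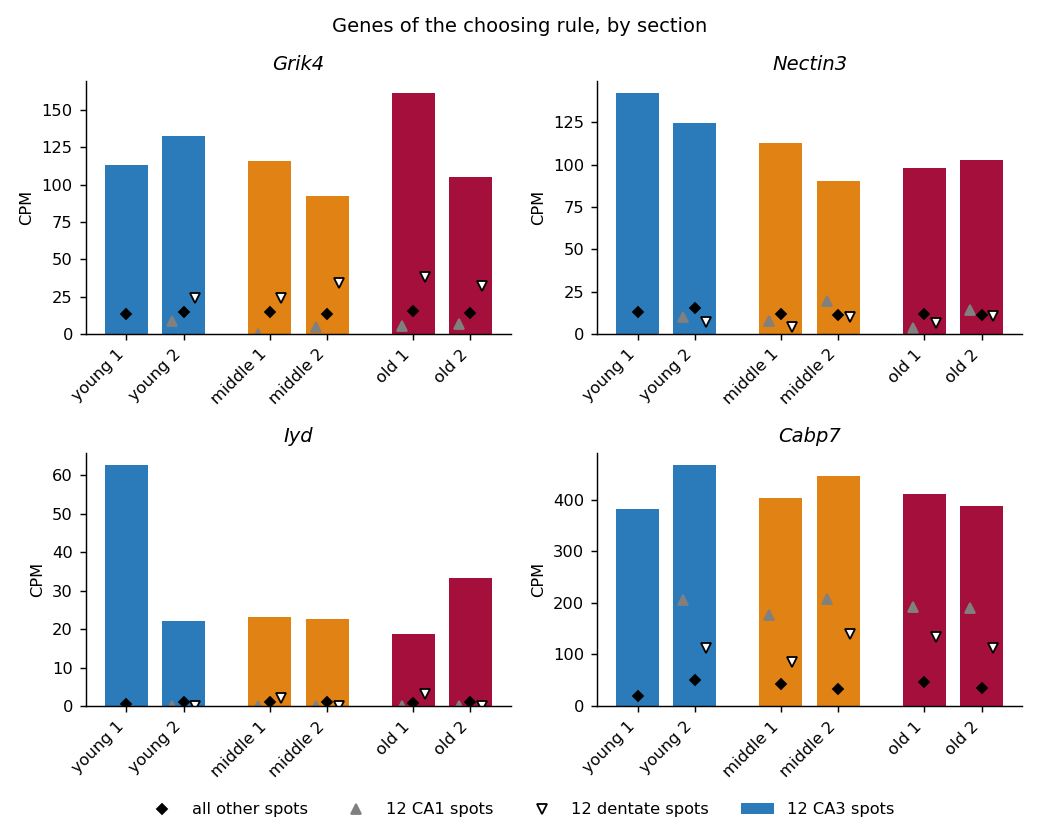
Unscaled CPM of the 4 choosing genes by section: bars are the sums over 12 CA3 spots (blue young, orange middle, red old), diamonds the other spots, grey triangles CA1 spots and open triangles dentate gyrus spots, both left out for young 1. Each bar stands above all other symbols of its section, and the CA1 symbols come nearest to the bars for Cabp7, at 177 to 207 CPM.

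Each of the 4 genes was also measured in spots chosen by the other 3 alone, a choice that did not use it. Grik4 was then 64.5 to 92.5 CPM in the chosen spots and 13.8 to 15.6 in the rest, a mean log2 difference (pseudocount 1 CPM) of 2.29 ± 0.23 (SD, n = 6). The mean log2 difference was 2.33 ± 0.61 for Nectin3, 3.33 ± 0.72 for Iyd and 3.02 ± 0.52 for Cabp7 (SD, n = 6). Each left-out gene was higher in 6 of 6 sections, with an exact two-sided sign-flip p of 0.03125 (0.03125 after Benjamini-Hochberg adjustment over the 4), the smallest that 6 sections can give. Of the 12 spots chosen by 3 genes, 6 to 11 per section were also members. The members were chosen with earlier results of these data known. The check is therefore not independent of the choice, and no conclusion is drawn from its p.

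Genes of CA3 pyramidal cells that the rule did not use were high in these spots. Of 12 such genes, 10 were higher than in the other spots in all 6 sections, where over all genes with a mean of at least 50 CPM in CA3 spots 1280 of 3641 were. Bok, a Bcl-2 family member, had 672, 505, 507, 589, 512 and 575 CPM, with a mean of 560 ± 66.0 (SD, n = 6) against 89.3 in the other spots, 79.6 in CA1 and 56.1 in dentate gyrus spots. Cpne4, a calcium-dependent phospholipid-binding copine, had 290 ± 76.5 CPM against 56.5, 11.4 and 95.4 in the same 3 sets. Slit2, a secreted axon guidance ligand, had 72.6 ± 16.8 CPM in CA3 spots and 17.5 in the other spots, 1.78 in CA1 and 4.98 in dentate gyrus spots. Elavl2, a neuronal RNA-binding protein, had 173 ± 37.6 CPM and the other spots 83.8. Coch was the exception, with 2.43 CPM against 29.0 in the other spots, and Nnat ranged from 74.5 to 434 CPM between sections, around a similar mean (238 ± 121 against 234).

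Neighbouring fields and other tissue were present in small and unequal amounts. The summed level of 6 CA1 genes was 98.6 to 247 CPM in CA3 spots, against 850 to 1932 in the CA1 spots of all 6 sections. The 5 dentate granule cell genes summed to 20.3 to 51.4 CPM and the 4 mossy cell genes to 55.4 to 98.5 CPM. The summed CA2 genes ranged from 318 CPM to 1172 CPM in young 2, where 1 spot alone held 50 UMIs of the CA2 gene Rgs14 and 50 of Spink8. The 8 myelin genes summed to 1627 to 4113 CPM, below the 6464 to 7555 of the other spots, and all 8 were lower than there in all 6 sections. Among all genes with a mean of at least 50 CPM in the other spots, 838 of 3632 were lower in all 6. Ttr, the transthyretin gene of choroid plexus, was uneven, at 171, 658, 216, 1836, 210 and 1709 CPM. The part of these neighbours in the results below was not tested.

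Beyond these lists, 257 of 3641 genes (7.06%) were higher in all 6 sections and by a median of at least 1 on the log2 (CPM + 1) scale, and 97 of the 257 were also above both CA1 and dentate gyrus spots in the 5 sections other than young 1. Because every gene of the chosen spots was open to the choice, these are descriptions. Npy2r, a presynaptic receptor for neuropeptide Y (chromosome 3, 82538383 to 82548084, minus strand), had 201, 179, 132, 117, 122 and 139 CPM, with a mean of 148 ± 34.1 (SD, n = 6) against 11.7 in the other spots. Homer3, a postsynaptic scaffold that binds metabotropic glutamate receptors, had 134 ± 23.5 CPM against 9.89, a median of 5.02-fold over CA1 and 3.11-fold over dentate gyrus spots. Hs3st4, a heparan sulfate sulfotransferase, had 333 ± 35.9 CPM against 53.3, and was 5.28-fold above CA1 and 8.56-fold above dentate gyrus spots. Bok was 7.14-fold and 9.82-fold above them.

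Several of the highest folds were shared with a neighbouring field. Klk8, the secreted protease neuropsin, had 103 ± 9.66 CPM against 7.91 in the other spots, but only 1.59-fold more than in CA1 spots and 13.5-fold more than in dentate gyrus spots. Il16, a cytokine precursor with a neuronal form, had 60.1 ± 15.6 CPM against 4.09, with a median of 6.30-fold over CA1 and 1.60-fold over dentate gyrus spots. Smoc2, a secreted matrix protein, was 14.8-fold above CA1 and 0.825 times the dentate gyrus level. The transcription factor gene Neurod6 (438 ± 60.1 CPM against 55.2) and the calcium sensor gene Hpca (2363 ± 175 against 371) were at 468 and 2833 CPM in CA1 spots. Ptgs2, the inducible cyclooxygenase, had 71.0 ± 14.2 CPM against 7.53. Genes of other regions were low. The enkephalin gene Penk had 7.17 CPM against 229, and Slc17a6, the vesicular glutamate transporter of thalamus and midbrain, 3.88 against 88.2.

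**Figure D2:**
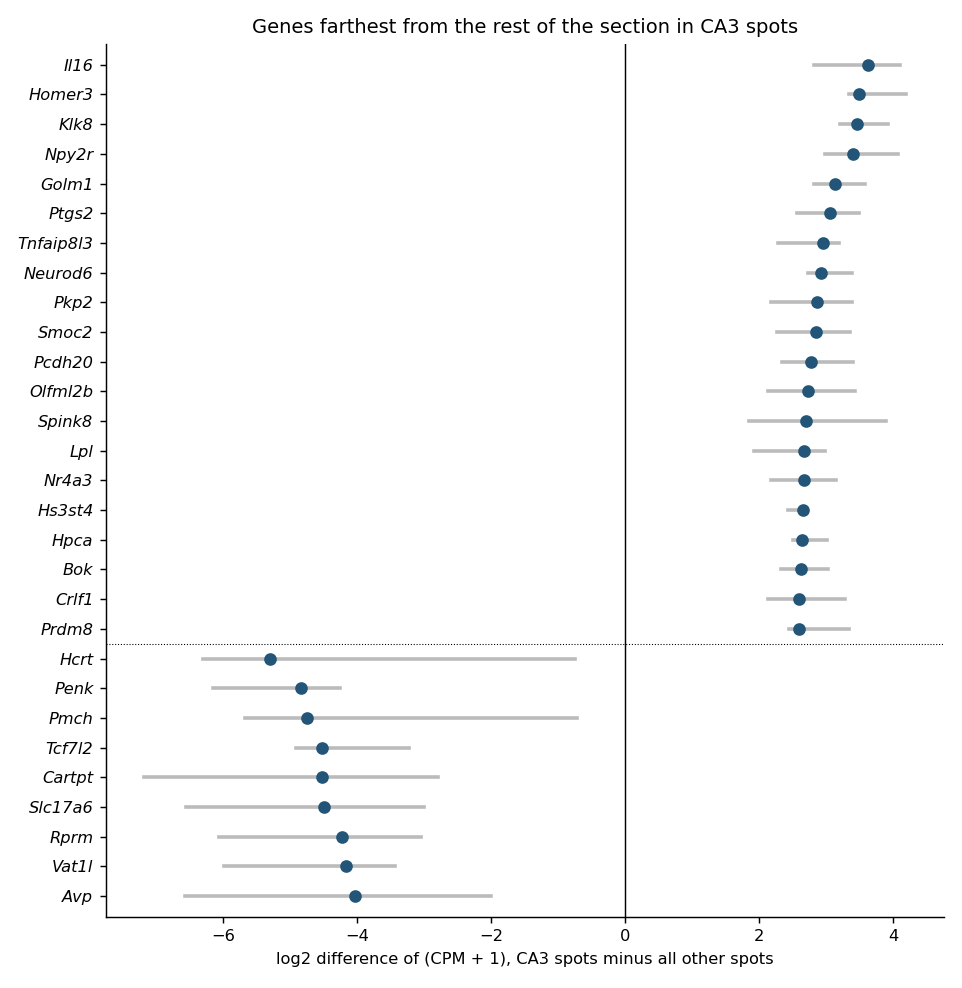
Median over 6 sections (dot) and range (line) of the difference of log2 (CPM + 1) between CA3 spots and the other spots of the same section, for the 20 genes farthest above 0 and 9 of the 10 farthest below it under the naming rule. Il16, Homer3, Klk8 and Npy2r head the upper group with median folds between 10.7 and 12.4, and the ranges of Spink8, Hcrt and Pmch are wide.

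Among receptor genes, the most abundant AMPA and NMDA receptor subunits lay between the levels of CA1 and of the rest of the section. Of 10 AMPA and NMDA receptor genes, 6 were higher than in the other spots in all 6 sections and 4 lower. Over all genes of at least 50 CPM, 1280 of 3641 were higher and 838 of 3632 lower. Gria1 had 399 ± 18.5 CPM (SD, n = 6), above the 168 of the other spots and below the 821 of CA1 and 596 of dentate gyrus spots, and Gria2, Grin2a and Grin2b followed the same order (489, 250 and 117 CPM in CA3 spots against 876, 532 and 267 in CA1). Grin1 had 390 CPM, between the 284 of the other spots and the 569 of CA1, but above the 344.5 of dentate gyrus spots. Among 6 kainate receptor genes outside the rule, Neto1, an auxiliary subunit, had 161 ± 29.6 CPM against 44.5 in the other spots, 16.4 in CA1 and 65.1 in dentate gyrus spots, and was above both fields in 5 of 5 sections. Grik5, the other high-affinity subunit, had 226 ± 22.7 CPM against 133, and Grik2 24.9 against 24.1. Of 12 GABA receptor genes, 4 were higher in all 6 sections, near the share over all genes, and 4 lower. Gabra5, the subunit of tonic inhibition in hippocampus, had 282 ± 31.7 CPM against 50.2, while Gabrd, another extrasynaptic subunit, had 7.15 against 74.5 and 108 in dentate gyrus spots.

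Presynaptic and calcium signalling genes were mostly higher than in the rest of the section. Of 16 presynaptic genes 10 were higher in all 6 sections and 1 was lower, and their summed level was 11940 to 14090 CPM against 7347 to 8257 in the other spots. Snap25, a core protein of vesicle fusion, had 4787 ± 448 CPM against 2594 in the other spots, 1927 in CA1 and 1677 in dentate gyrus spots. Syn2, a synapsin, had 1186 ± 75.4 CPM against 388, and Slc17a7, the vesicular glutamate transporter of cortical neurons, 1429 ± 121 against 543. For calcium signalling 12 of 17 genes were higher and 2 lower in all 6 sections. For both lists the background is 1280 of 3641 genes higher and 838 of 3632 lower. Ppp3ca, the calcineurin catalytic subunit, had 2086 CPM against 1047, with 3877 in CA1 spots.

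Guidance and growth factor genes were mixed. Of 10 adhesion and guidance genes of the mossy fibre pathway, 5 were higher in all 6 sections and 1 lower, where 1280 of 3641 and 838 of 3632 genes were. Epha4, an ephrin receptor, had 412 ± 60.8 CPM against 106, and Cdh9, a cadherin of mossy fibre contacts, 58.6 ± 13.5 against 9.99, with 6.42 in CA1 and 63.7 in dentate gyrus spots. Nectin1, the binding partner of nectin-3, had 34.9 CPM against 28.7. Bdnf, brain-derived neurotrophic factor, had 104 ± 35.0 CPM against 31.4. Of 10 immediate early genes, 7 were lower in all 6 sections, among them Egr1 (173 CPM against 319, with 831 in CA1), and Npas4 was higher (38.1 ± 11.5 against 17.7).

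With age, the clearest difference in CA3 spots lay in 2 interneuron neuropeptide genes. Levels in the age comparisons are CPM scaled with TMM factors, edgeR's correction for library composition, and tests are edgeR's quasi-likelihood F-test on section sums, with calls at an adjusted p under 0.05 (Benjamini-Hochberg over 7401 genes). In old against young spots 6 genes were called (0.0811% of those tested), all higher, namely Npy, Sst, Mfge8, Nap1l5, Tmsb10 and C4b, and 0 lower, where 512 (6.92%) had an unadjusted p under 0.05. DESeq2 called Npy and Sst only. In a spot, more cells of a type and more RNA per cell cannot be told apart.

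Npy, the gene of neuropeptide Y (chromosome 6, 49822710 to 49829507, plus strand), was at 48.5 and 38.7 CPM in young, 107 and 96.9 in middle and 233 and 201 in old CA3 spots. The 3 ages did not overlap, and the middle sections lay between the others. Old against young, Npy rose by 2.30 on the log2 scale (SE 0.24, adjusted p = 3.007e-08) and it was called under all 16 alternatives tried, with log2 differences from 1.63 to 2.48 and adjusted p from 5.023e-17 to 0.0001196. Sst, the gene of somatostatin (chromosome 16, 23889573 to 23890958, minus strand), was at 115.5 and 87.6, 124.5 and 153, and 333 and 401 CPM. The 3 ages did not overlap here either, with the middle sections nearer to the young ones, and Sst rose by 1.84 (SE 0.19, adjusted p = 3.007e-08).

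Part of both differences rested on few spots. In old 1, 1 spot, the 11th by score, held 54 of the 96 Npy UMIs and 56 of the 137 Sst UMIs. With the highest spot of every section left out, Npy was 41.4, 32.8, 83.7, 75.1, 109 and 165 CPM (unscaled) and Sst 86.4, 66.3, 104, 108, 211 and 301 CPM, so that both old sections remained above the other 4. The median spot had 2.5, 1.5, 4.5, 3.5, 3.5 and 4.5 Npy UMIs. The 8 highest-scoring spots alone gave 95.01 and 201 CPM (unscaled) of Npy in old 1 and old 2, against 34.9 and 29.8 in young. The middle sections had 105 and 98.95, so that old 1 lay below both of them there. For Sst those 8 spots gave 106 CPM in old 1 and 364 in old 2, against 114 and 107 in young and 108 and 167 in middle sections. Old against young, Sst was not called with them (log2 difference 1.19, adjusted p = 0.8225). Sst was called under the other 15 alternatives.

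**Figure D3:**
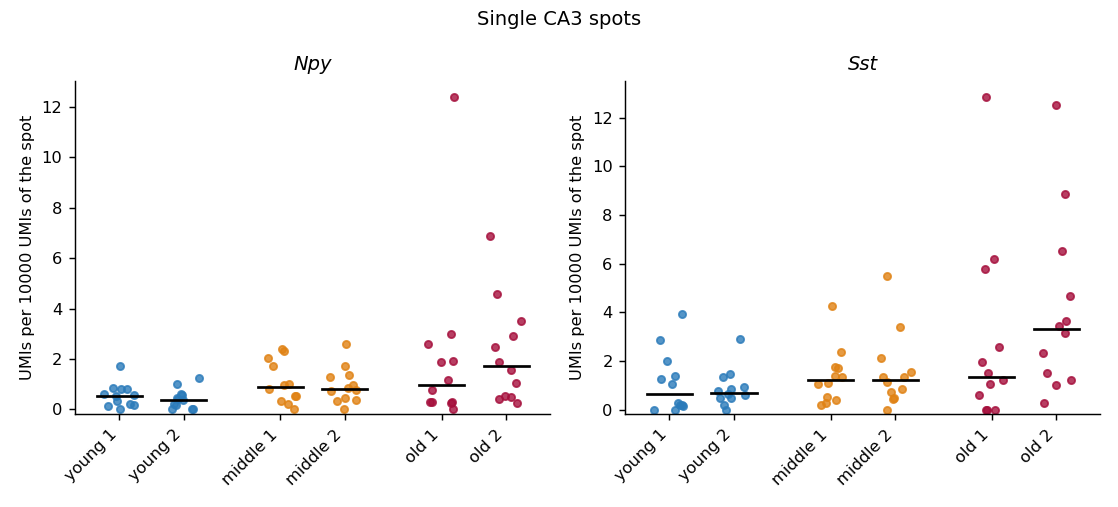
Npy and Sst UMIs per 10000 UMIs of the spot in each of the 72 CA3 spots, by section, with the section's median spot as a line. The spot of old 1 that held 54 Npy and 56 Sst UMIs is the highest point of both panels, and no young spot held more than 6 Npy UMIs.

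The other interneuron genes moved less. Of 8 listed, 7 were tested and 2 called (Npy and Sst), all 7 had a positive log2 difference with a median of 1.16, and 5 were higher without overlap between the ages, where 18.1% of all genes were. The summed level of the 8 was 397 ± 15.4 CPM (unscaled, SD, n = 2) in young, 720 ± 234 in middle and 979 ± 143 in old CA3 spots, against 1447 to 1715 in the other spots. Gad1, the main GABA-synthesizing enzyme, had 60.3, 61.1, 241, 119.5, 190 and 112 CPM and was not called (log2 1.32, adjusted p = 0.3999), though it was with slide as a term (1.70, adjusted p = 0.002146). Pvalb, of basket cells, had 102, 77.4, 124.5, 47.3, 141 and 56.2 CPM, with no order by age.

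The change of Npy and Sst with age was larger in CA3 spots than in the rest of the section. In the other spots Npy was 159 to 208 CPM (unscaled) and Sst 317 to 374 in all 6 sections. A test of the difference between the age changes called 5 genes (0.0676% of 7401), 4 of them more positive in CA3 spots (0.054%) and 1 more negative (0.0135%), where 6.22% had an unadjusted p under 0.05. Npy was more positive in CA3 spots by 2.57 on the log2 scale (SE 0.24, adjusted p = 3.098e-08) and Sst by 2.01 (SE 0.17, adjusted p = 3.564e-09). The count was 10 without young 1, 83 without young 2, 3 without old 1 (Npy, Sst and Malat1) and 2 without old 2 (Npy and Sst). With limma on differences within sections 0 genes were called, 436 having an unadjusted p under 0.05. Npy in CA1 spots was 137 CPM in young 2, 39.9 and 93.8 in middle and 62.2 and 128 in old sections, and in dentate gyrus spots 134, 81.5, 113, 112 and 187. Sst in the CA1 spots of the same sections was 160, 35.1, 72.2, 74.3 and 147 CPM, highest in young 2. In dentate gyrus spots Sst was 29.3, 35.2, 37.7, 44.9 and 36.0. The dentate gyrus spots of young 1 had 22.2 CPM of Npy and 8.87 of Sst, the lowest of the 6 sections for both. Against CA1 spots, 1 gene was called (0.0135% of 7399), Sst at 2.87, with 4.81% at an unadjusted p under 0.05, but this used the young 1 spots that lack CA1 genes. Without young 1, which leaves 1 young section that is assumed to vary like the sections of the other ages, the calls were Npy at 3.02 (adjusted p = 2.188e-10) and Sst at 2.60 (adjusted p = 2.414e-12). Against dentate gyrus spots 0 of 7401 genes (0%) were called by edgeR or limma, with 380 (5.13%) at an unadjusted p under 0.05, and without young 1, under the same assumption, Npy (2.27, adjusted p = 0.0003882) and the noncoding RNA Snhg11 (-1.02, adjusted p = 0.03125) were.

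**Figure D4:**
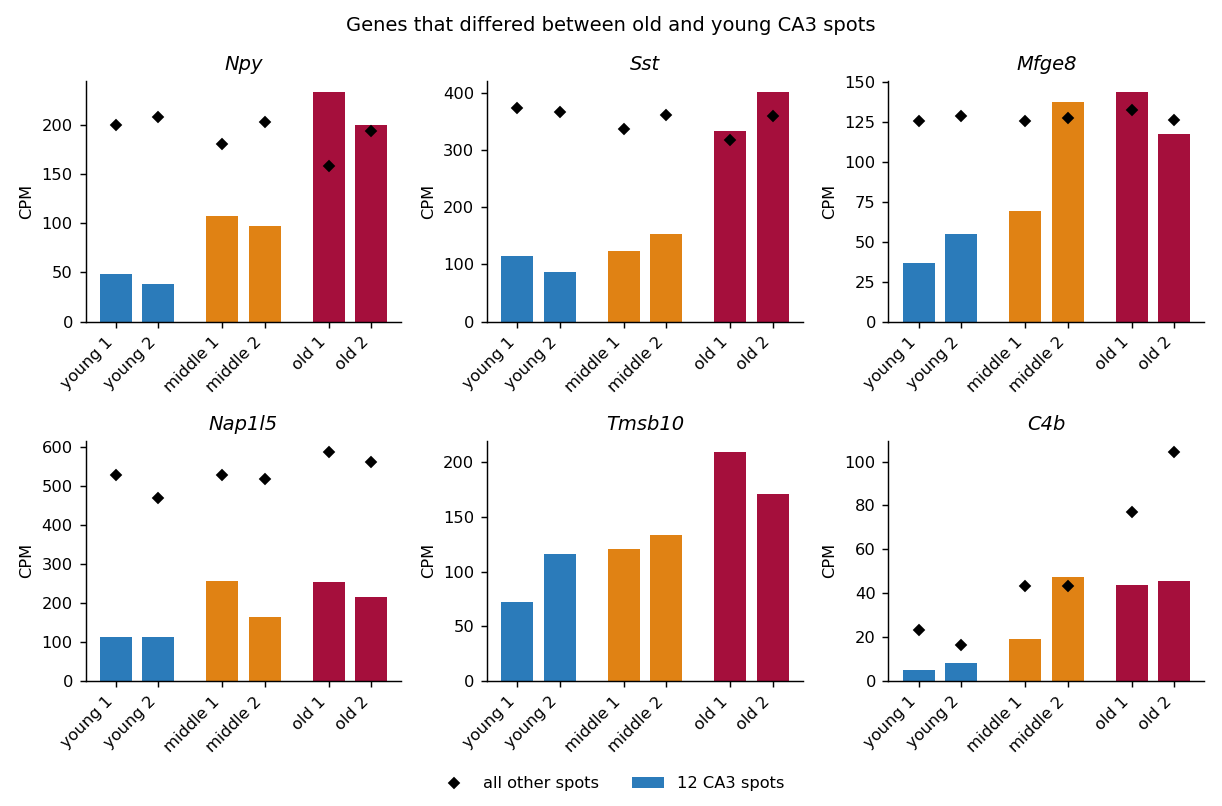
TMM-scaled CPM of the 6 genes called in old against young CA3 spots, by section (bars; blue young, orange middle, red old), with the unscaled CPM of the other spots as diamonds, left out for Tmsb10. For Tmsb10 the other spots had 946 and 1077 CPM in young, 967.5 and 1076 in middle and 1247 and 1131 in old sections. Both old values thus lay above both young ones there too. Old bars stand above both young bars in every panel, and the old diamonds stand above both young ones for Nap1l5 and C4b but not for Npy, Sst or Mfge8.

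The remaining called genes had smaller or less stable differences. Mfge8, a phagocytosis bridging protein made largely by astrocytes in brain, was at 36.8, 55.0, 69.0, 137.5, 143 and 118 CPM and rose by 1.53 (SE 0.29, adjusted p = 0.01603), with the other spots at 125 to 133 in every section. In dentate gyrus spots Mfge8 was also higher in old sections, at 36.7 CPM (unscaled) in young 2, 48.5 and 48.0 in middle and 83.3 and 68.5 in old. In CA1 spots it was 29.1, 43.1, 38.5, 55.3 and 32.7. C4b, complement component 4 (chromosome 17, 34728380 to 34743882, minus strand), had only 3, 4, 10, 21, 18 and 17 UMIs, or 5.02, 8.15, 19.2, 47.3, 43.8 and 45.5 CPM, and rose by 2.74 (SE 0.54, adjusted p = 0.01603). In the other spots C4b was at 23.5 and 16.6, 43.2 and 43.2, and 77.2 and 104 CPM (unscaled), and the 3 ages did not overlap there, whereas middle 2 lay above both old sections in CA3 spots. Nap1l5, an imprinted gene of the nucleosome assembly family, was at 114 and 114, 257 and 165, and 255 and 217 CPM and rose by 1.05 (SE 0.20, adjusted p = 0.01603). Tmsb10, an actin-binding thymosin, was at 72.0 and 116, 121 and 133, and 209 and 171 CPM and rose by 1.04 (SE 0.22, adjusted p = 0.04947). Mfge8 lost its call under 6 of 16 alternatives, Nap1l5 under 5, Tmsb10 under 8 and C4b under 4.

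No gene was called lower in old CA3 spots. The nearest were Meg3, a maternally expressed noncoding RNA, at a log2 difference of -0.51 (adjusted p = 0.1157) and Cpsf2, an mRNA cleavage factor, at -1.42 (adjusted p = 0.1157), with 65.3, 79.5, 49.8, 67.6, 26.7 and 26.8 CPM. The number of calls depended on single sections: without young 1 it was 42, without young 2 92, without middle 1 16, without middle 2 18, without old 1 3 and without old 2 2. Of these, 15, 32, 2, 2, 1 and 0 were lower, the 1 without old 1 being Meg3 (-0.78, adjusted p = 0.02169). Without the filter on low counts 3 of 19 calls were lower, and with 8 spots 1 of 17.

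No listed gene of CA3 neurons or of their receptors, channels and synapses was called between old and young, where 0.0811% of all genes were. Of the 12 CA3 genes outside the rule 9 were tested, and the median log2 difference was -0.06, where it was 0.00 over all 7401 genes. Of these 9, 4 lay lower without overlap and 1 higher, where 17.9% and 18.1% of all genes did. Cpne4 was at 432 and 297.5 CPM in young, 310 and 255 in middle and 241 and 270 in old spots (log2 -0.52, adjusted p = 0.4241). Elavl2 was at 238, 183, 193.5, 153, 148 and 160.5 CPM (log2 -0.46, adjusted p = 0.6389). Bok was at 588 ± 108 CPM (SD, n = 2) in young spots, at 596 ± 72.9 at the middle age and at 566 ± 47.3 in old spots. None was called among 7 AMPA and NMDA receptor genes (median -0.03), 4 kainate receptor genes (0.18), 9 GABA receptor genes (-0.08), 15 presynaptic genes (0.01), 16 calcium signalling genes (-0.16) or 11 potassium channel genes (0.02). Of the calcium signalling genes 8 lay lower without overlap. All 9 heat shock and glucocorticoid response genes tested had negative log2 differences (median -0.32, 0 called), with Hsp90aa1 at 1809, 1590, 1471, 1366, 1298 and 1436 CPM. Bdnf was at 164, 120, 107, 69.9, 94.8 and 90.9 CPM (log2 -0.62, adjusted p = 0.5395).

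Astrocyte, microglia and age-related glial genes had mostly positive log2 differences in old against young CA3 spots, with 1 call. All 7 astrocyte genes were positive and did not overlap, where 18.1% of all genes were so (median 0.42, 0 called), and Slc1a2, the main glutamate transporter, was at 986 and 948 CPM in young, 1145 and 1474 in middle and 1050 and 1217 in old spots. Of 8 microglia genes 7 were positive (median 0.47, 0 called). Of 11 age-related glial genes 9 were positive (median 0.26), and C4b was the 1 called. Apoe, the main brain apolipoprotein, was at 651, 848, 1075, 1795, 1210 and 1332 CPM (log2 0.77, adjusted p = 0.7706). Of the 8 myelin genes 2 were positive and 6 negative, with a median of -0.04 and 0 called. Serpina3n, a serine protease inhibitor of reactive astrocytes (chromosome 12, 104406729 to 104414329, plus strand), differed in its age change between CA3 spots and the rest. It was at 67.7, 84.5, 69.7, 55.4, 56.1 and 69.3 CPM (unscaled) in CA3 spots and 13.4, 13.5, 19.2, 26.7, 27.9 and 41.2 in the other spots, and the difference between the age changes was -1.52 (SE 0.30, adjusted p = 0.02522). This call was lost under 4 of 8 alternatives (limma, 24 spots, without old 1 and without old 2), with adjusted p up to 0.7403. In CA1 spots Serpina3n was 98.8 CPM (unscaled) in young 2, 121 and 74.6 in middle and 91.6 and 93.4 in old sections. In dentate gyrus spots it was 56.2, 37.4, 41.1, 44.9 and 39.6. In neither field did an old section lie above young 2, so the lack of a rise was not particular to CA3 spots.

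Middle against young CA3 spots gave more calls, among them genes of mitochondria and ribosomes. Of the 7401 genes 34 were called (0.459%), with 33 higher (0.446%) and 1 lower (0.0135%), and 630 (8.51%) had an unadjusted p under 0.05. DESeq2 called 17. The young sections serve both comparisons, so the 2 sets of differences share them. Of the 13 mitochondrially encoded genes of the respiratory chain 8 were called higher and all 13 were positive, with a median of 0.76 against -0.00 over all genes. mt-Nd1 was at 4623 and 6112 CPM in young, 8874 and 9320 in middle and 7110 and 7441 in old spots, and rose by 0.76 (SE 0.11, adjusted p = 0.000106). Old against young the same list had 0 calls and a median of 0.41, and old against middle 0 calls and a median of -0.39. None of the 17 nuclear respiratory chain genes was called in either comparison with young (median 0.10 for middle, 0.21 for old); Cox6b1, which stands outside that list, was (0.50, adjusted p = 0.04144).

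The mitochondrially encoded share of UMIs adds up the genes of that same list, so it is not a separate result. It was 6.82%, 9.28%, 12.2%, 12.9%, 10.6% and 10.1% in CA3 spots, each with a 95% Wilson interval of at most 0.0945 percentage points to either side (counting error only), and 13.3% to 16.6% in the other spots. Young 1 had the lowest share in CA3 spots and the highest in the other spots. Cytosolic ribosomal protein genes, a list made after these calls were seen, had 14 of 81 called higher, 80 of 81 positive and a median of 0.38, and old against young 0 called and 0.19. Their share of UMIs was 5.29%, 5.01%, 6.10%, 6.42%, 5.65% and 5.85% in CA3 spots, each within 0.0737 percentage points, against 6.75% to 7.91% in the other spots. With mitochondrially encoded and haemoglobin genes left out of the fit, 24 genes were called, all of them among the 34. Otherwise the part of these shares in the calls was not tested.

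**Figure D5:**
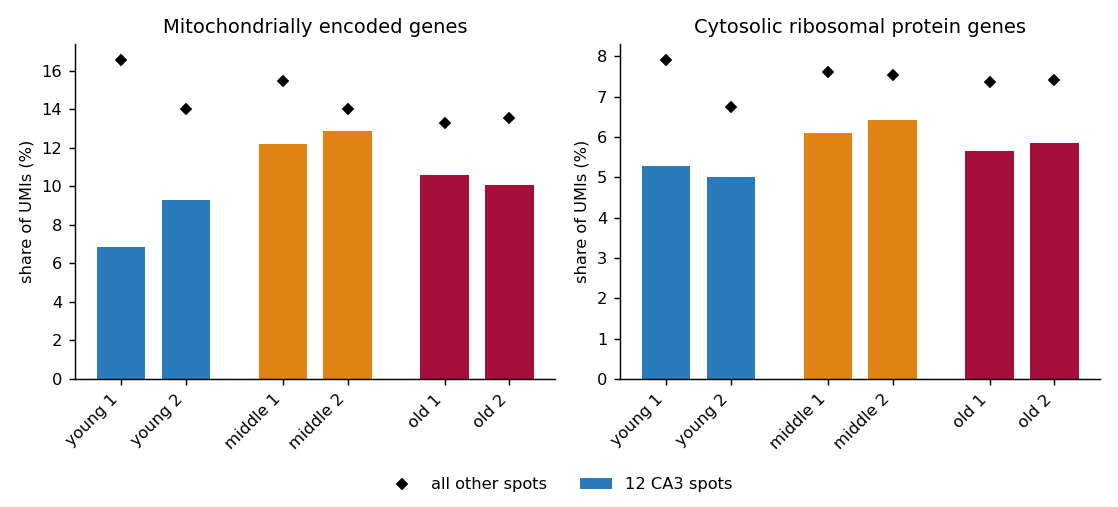
Share of UMIs (%) from the 13 mitochondrially encoded genes and from 84 cytosolic ribosomal protein genes in CA3 spots (bars) and the other spots (diamonds), by section. Middle bars are the highest in both panels, at 12.2% and 12.9% for the first and 6.10% and 6.42% for the second, and all bars lie below the diamonds of their section.

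Among the other middle against young calls were genes of synapse and signalling. Cacng2, the AMPA receptor auxiliary subunit stargazin, was at 21.8 and 32.6 CPM in young, 80.5 and 65.4 in middle and 51.0 and 58.9 in old spots (log2 1.45, adjusted p = 0.02337). Rgs10, a regulator of G protein signalling, was at 36.8, 32.6, 93.9, 81.2, 72.9 and 61.5 CPM (1.33, adjusted p = 0.01481). Fads2, a fatty acid desaturase, was at 28.5, 40.8, 72.8, 90.2, 70.5 and 82.9 CPM (1.24, adjusted p = 0.03467). Cnr1, the cannabinoid receptor of presynaptic terminals, was at 68.6, 122, 270, 178, 92.4 and 112 CPM (1.27, adjusted p = 0.007084), and 51 of its 141 UMIs in middle 1 lay in 1 spot. Npy rose by 1.21 (adjusted p = 0.01756), Nap1l5 by 0.90 (adjusted p = 0.02632) and the acyl-CoA-binding gene Dbi by 0.74 (adjusted p = 0.01197).

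Markers of vessels and glia were among the calls as well. Cldn5, a tight junction gene of endothelium, was at 8.37, 12.2, 28.7, 58.6, 38.9 and 16.1 CPM (2.05, adjusted p = 0.04144), and C4b rose by 2.28 (adjusted p = 0.04609). All 6 endothelial genes tested were positive with a median of 0.79 and 1 call (Cldn5), as were 7 of 7 astrocyte genes (0.70, 0 called) and 8 of 8 microglia genes (0.71, 0 called). Of these, 2 endothelial, 6 astrocyte and 6 microglia genes were higher without overlap, where 19.5% of all genes were. St6galnac4, a sialyltransferase, was the 1 gene called lower, at 68.6, 63.2, 22.98, 24.8, 48.6 and 48.2 CPM (-1.46, adjusted p = 0.02743). All 4 CA2 genes tested were lower without overlap (median -1.31, 0 called), against 18.4% of all genes; the high CA2 level of young 2 is given above. Of 16 alternatives each, the middle against young call was lost under 10 for C4b, 9 for Cldn5, 9 for St6galnac4, 8 for Fads2, 6 for Cacng2, 6 for Nap1l5, 5 for Dbi, 4 for Rgs10, 3 for Cnr1 and 3 for Npy. With slide as a term 1 gene was called, Gad1 (1.94, adjusted p = 0.0003408), which is not among the 34. The difference of the middle against young change between CA3 spots and the other spots was called for 5 genes (0.0676%), 4 more positive in CA3 spots (0.054%) and 1 more negative (0.0135%), with 7.9% at an unadjusted p under 0.05. They were Npy (1.33), Malat1 (0.75), Camk2n1 (0.70), Rpl27 (0.66) and Spink8 (-1.72), and limma called 0. The number of middle against young calls was 112 without young 1, 134 without young 2, 72 without middle 1, 23 without middle 2, 22 without old 1 and 39 without old 2.

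Old against middle CA3 spots differed in Sst and Npy only, 2 of 7401 genes (0.027%), with 274 (3.7%) at an unadjusted p under 0.05. Sst rose by 1.41 (SE 0.18, adjusted p = 2.041e-05) and Npy by 1.08 (SE 0.21, adjusted p = 0.03199), the latter call lost under 9 of 16 alternatives. All 13 mitochondrially encoded genes were negative and 12 did not overlap, where 17.7% of all genes did so in that direction. All 7 astrocyte genes were negative as well (median -0.21 against -0.01 over all genes, 0 called). So were 6 of 8 microglia genes (-0.26, 0 called) and 8 of 11 age-related glial genes (-0.17, 0 called). Cnr1 was lower by -1.14 without passing (adjusted p = 0.1613). The count was 18 without young 1, 19 without young 2 and 1 without old 1.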

How the data were processed

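Spatial RNA was measured with 10x Visium in 6 coronal brain sections. Values are unnormalized UMI counts in a sparse matrix per section, produced by the authors with Space Ranger, version 1.3.1 per the file headers and 3.1 per the submitters' processing notes, which name the build mm10. Other deposited tables list spot barcodes and gene names. Tissue images and spot coordinates were not used here. Positions are from GENCODE M21 (GRCm38), which held 32235 of the 32285 gene identifiers.

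Section totals were 60939185 to 77557934 UMIs. Spots under 500 UMIs were left out (1 each in middle 2 and old 2). The members and gene lists were chosen with earlier results of these data known. Leaving young 1 out of CA1 and dentate gyrus levels was chosen after seeing the data, as were the middle against young interaction and the ribosomal list.

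The 12 member spots of a section were added up to 1 library, and sections are the replicates. The 4 choosing genes were left out of the tests. The fit was edgeR 4.0.16 in R 4.3.3, a robust quasi-likelihood model with TMM factors and filterByExpr, with age as the only term on all 6 sections, and interactions had section as a block. Members against other spots was described only. No doublet caller was run, since a spot mixes cells. Chi-square per degree of freedom between the sections of an age was 1.40 to 2.47, above counting error. Across genes, replicate numbers did not pair the sections (correlations of deviations 0.06, -0.06 and 0.02). Single genes such as Ttr, Pvalb and Malat1 still kept the same order of sections 1 and 2 at every age.

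Named genes were the 4 choosing genes, the 20 highest and 10 lowest genes by median log2 difference from the other spots (mean of at least 50 CPM), up to 5 called genes per comparison and direction with a mean of at least 50 CPM and no overlap (filled up by smallest p), and the 4 most abundant and all called members of each list. Of the 10 lowest genes 1 is not reported here. Further list members, and C4b, Cldn5, St6galnac4, Snhg11, Cox6b1 and Dbi, were chosen after their values were seen.

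The fit was repeated with DESeq2 1.42.0, without the filter, with RLE factors, with edgeR's newer dispersion, with slide or replicate number as a term, with 8 or 24 spots, with at least 3 markers detected, mitochondrially encoded and haemoglobin genes left out, limma 3.58.1 for interactions, a pseudocount of 10 CPM and each section left out. The fits were tested on simulated data with known changes.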

Additional observations from a re-analysis of the deposited data

Results flagged for a closer look

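The change from young to old differed between CA3 spots and the other spots for 5 genes by edgeR's interaction test, in log2 units as CA3 minus other. The differences were 2.57 for Npy, 2.01 for Sst, 1.55 for Mfge8 (adjusted p = 0.02522), 0.78 for Malat1 (adjusted p = 0.02522) and -1.52 for Serpina3n. Malat1, an abundant nuclear noncoding RNA, had 523, 241, 527, 333, 407 and 367 CPM (unscaled) in CA3 spots and 789, 378, 578, 299, 456 and 294 in the other spots. In both sets the section numbered 1 was above the section numbered 2 at every age. The TMM-scaled mean in CA3 spots was 381 CPM in young and 403 in old sections. Of 8 alternatives, Mfge8 lost its call under 5, Malat1 and Serpina3n under 4 each, and Npy and Sst under 1 each (limma). Against CA1 spots Sst differed by 2.87 (adjusted p = 0.01663), a value that uses the young 1 spots lacking CA1 genes and was 2.60 without that section, with 1 young section left; its call was lost under 6 of 8 alternatives.

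From young to middle, 5 genes differed between CA3 spots and the other spots, each at an adjusted p of 0.04189 by edgeR. The differences were 1.33 for Npy, 0.75 for Malat1, 0.70 for Camk2n1, an inhibitor of the calcium and calmodulin kinase, 0.66 for Rpl27, a ribosomal protein gene, and -1.72 for Spink8, a CA1 gene. This count of 5 was 36 without young 1, 113 without young 2, 29 without middle 1, 3 without middle 2 and 0 without old 1 or old 2. Camk2n1 had 836 and 1207 CPM (unscaled) in young and 1434 and 1292 in middle CA3 spots. Rpl27 had 317 and 298 in young and 420 and 470 in middle CA3 spots. Spink8 had 69.4 and 205 in young and 55.4 and 39.0 in middle CA3 spots, and 50 of the 102 Spink8 UMIs of young 2 lay in 1 spot.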

How the results depend on the processing

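With 2 sections per age and 3 residual degrees of freedom, a gene without a call may still differ. Genes of interneurons, glia, CA2, choroid plexus and myelin were present in the 12 spots of a section in unequal amounts, and all young sections lie on slide 1. Old against young, the 6 calls became 2 with DESeq2, 19 without the filter and 17 with 8 spots, and 2 to 92 with a section left out. Middle against young, the 34 calls became 17 with DESeq2, 82 without the filter, 1 with slide as a term, 105 with 8 spots and 9 with 24, and 22 to 134 with a section left out. Old against middle, the 2 calls became 1 with DESeq2, 13 without the filter, 1 with slide as a term, 0 with 8 spots and 1 with 24, and 1 to 19 with a section left out. The replicate numbers did not pair the sections across genes, and with the replicate block the counts were 7, 22 and 1 in these 3 comparisons. The CA3 against other spots interaction went from 5 calls for old to 0 with limma and 2 with 24 spots (2 to 83 with a section left out), and from 5 for middle to 0 and 1 (0 to 113). Against CA1 spots the 1 call became 0 with limma and 0 with 24 spots (0 to 887), and against dentate gyrus spots leaving out a section gave 0 to 1042; the highest counts came without young 2, which leaves young 1 as the only young section. The left-out choosing genes kept their direction without any 1 section, where 5 sections cannot give a p under 0.05: 2.21 to 2.34 for Grik4, 2.148 to 2.503 for Nectin3, 3.06 to 3.44 for Iyd and 2.82 to 3.09 for Cabp7. Of 1272 alternatives for 100 named gene values 1 changed sign (Spink8, middle against young interaction, 0.10 with 24 spots), 273 lost a call and 72 gained a call. The cause was not tested for any of these, except that fewer spots or sections leave fewer UMIs.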

Other observations

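One feature of interneurons in these spots is not described above. In middle 1, 57 of 59 UMIs of Vip, the gene of vasoactive intestinal peptide, lay in the CA3 spot ranked 2nd by score, which also held 18 UMIs of Gad1 and 51 of Cnr1. Vip had 0, 2, 59, 3, 3 and 2 UMIs by section, and the other spots had 32.6 to 40.9 CPM. In old 1 the spot that held 54 Npy and 56 Sst UMIs had 19 UMIs of Gad1. These spots were singled out after their values were seen.

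Interferon response genes were thinly covered. Of 10 interferon response genes 2 were tested in old against young CA3 spots and 0 called, with a median log2 difference of 0.87. Ifi27, an interferon-induced gene, had 28.5, 55.0, 51.7, 58.6, 60.8 and 66.9 TMM-scaled CPM. Of the cold-inducible genes, Rbm3 had 146, 141, 180, 156, 170 and 131 CPM and was not called.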
